A study of Arabidopsis thaliana with 12 samples.

Results

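The age dependence of the snap33 effect was measured in all 12 libraries of the series, as the difference between the snap33 effect at 12 d and the snap33 effect at 5 d. Whole Arabidopsis thaliana seedlings gave 3 libraries each of snap33 at 12 d, wild type (WT) at 12 d, snap33 at 5 d and WT at 5 d. The snap33 plants carry a T-DNA insertion that the labels call a knock-out of SNAP33, and no other allele is given for either genotype. All plants were untreated and grew on solid medium under long days. Each gene was described by a single contrast on raw counts, snap33 over WT at 12 d minus snap33 over WT at 5 d on the log2 scale, called the interaction below. It was tested for 18830 of 32744 genes with edgeR's quasi-likelihood test. A gene was "called higher" where the snap33 effect was more positive at 12 d (adjusted p under 0.05 over all tested genes) and "called lower" where it was more negative. CPM are read counts scaled to a common library total with TMM factors, and values with ± are means and SDs over the 3 libraries of a group.

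SNAP33 is a SNARE of the plasma membrane, a protein that helps vesicles fuse there with syntaxins such as SYP121 and KNOLLE, in secretion and in building the cell plate at division. Plants that lack it are known to stay small and to form necrotic lesions as they grow. Salicylic acid and jasmonate are defence hormones of plants. Salicylic acid acts mainly against pathogens that feed on living cells, jasmonate against chewing insects and pathogens that kill cells, and each can repress the other.

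The labels limit what the contrast can show. Harvest came 32 to 34 days after planting for the snap33 12 d plants, which have a planting date of 9 March, and 12 to 14 days after it for the WT 12 d plants, dated 29 March. Both sets of 5 d plants share that later date and were taken after 5 to 7 days. Planting date and genotype at 12 d cannot be told apart, and the ages below are those of the titles. Groups follow the titles, since the genotype field of the WT libraries also carries the wording of the knock-out. Of the flowering genes, whose relation to the planting dates was not tested, SOC1 had 208 to 249 reads in the snap33 12 d libraries against 192 to 238 in the WT 12 d libraries, FT had 14 to 16 in snap33 and 7 to 21 in WT, FLC had 6 to 9 in snap33 and 4 to 10 in WT, LFY had 1 to 4 in snap33 and 1 to 2 in WT, and AP1 had 0 in snap33 and 0 to 1 in WT. The interaction was called lower for SVP, GI, PI and SEP3, which are given with the tissue markers. A 3' sequencing format is named for a single library, snap33 12 d replicate 1. By raw counts WT 12 d replicate 3 stood apart from its group (chi-square per degree of freedom 7.85 and 10.4 against its 2 partners, 1.61 to 5.25 among the other pairs). In a principal component analysis of log2 CPM, WT 12 d replicate 2 lay apart instead. It was at 3.63 on component 1, against -7.98 for replicate 1 and -11.4 for replicate 3. Gene counts came to 4304441 to 5754570 per library. Each group has a single planting date and nothing says that its libraries came from separate plates, so p-values measure the spread between these samples only. In whole seedlings, fewer cells of a type and less RNA per cell cannot be told apart.

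SNAP33 itself was low in both sets of snap33 libraries. It had 2.94, 2.56 and 2.71 CPM in snap33 and 24, 27.9 and 21.3 CPM in WT at 12 d. It had 0.22, 0.72 and 1.91 CPM in snap33 and 21.2, 21.4 and 21.2 CPM in WT at 5 d. The groups did not overlap at either age, and the snap33 5 d libraries were the lowest of the 12. The interaction was 1.33 (SE 0.47, edgeR adjusted p = 0.0469), just inside the threshold. It was not called under 14 of 22 alternative settings, both replicate blocks included (adjusted p over the 22 settings 0.00467 to 0.205). Among them it was not called without any one of 10 of the 12 libraries, the exceptions being WT 12 d replicate 2 and snap33 5 d replicate 3, and without snap33 5 d replicate 1 the interaction was 0.84. On the CPM scale the difference of the 2 effects was -1.32, so the sign depends on the scale. An antisense gene covers 257 bases of SNAP33.

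The snap33 effect differed with age for 4466 genes, 23.7% of those tested. Of these, 2065 were called higher (11.0% of tested genes) and 2401 lower (12.8%). A change of at least 2-fold was fitted for 1172 of the genes called higher (6.22% of tested genes) and 912 of those called lower (4.84%). The median interaction over all tested genes was -0.02. The fitted effect was the larger one at 12 d for 3542 of the 4466 called genes (79.3%). Over all tested genes the SD of the log2 effect was 1.00 at 12 d and 0.61 at 5 d.

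**Figure D1:**
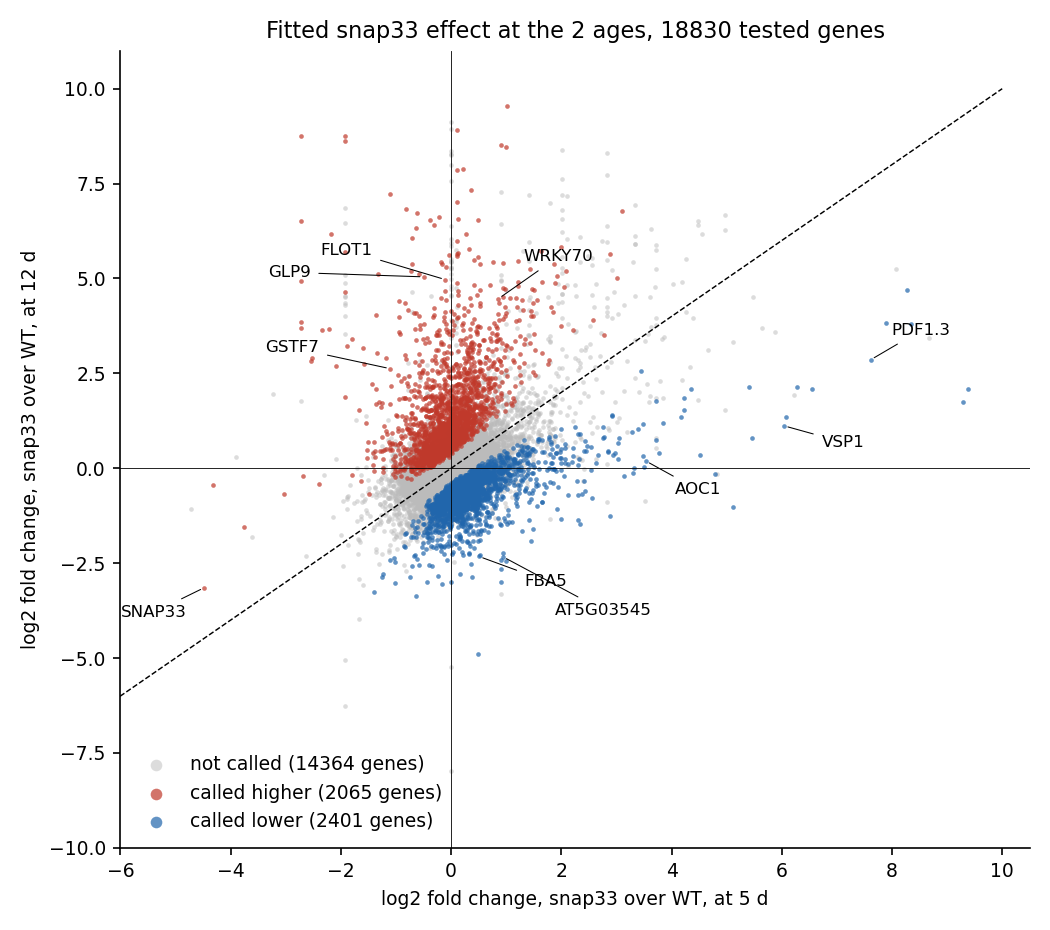
Fitted log2 fold change of snap33 over WT at 12 d (vertical axis) against that at 5 d (horizontal axis) for 18830 tested genes, where each point is a gene and the dashed line marks equal effects. Genes called higher (2065, red) lie above the line and genes called lower (2401, blue) below it, and the columns of grey points are genes with few or 0 reads at 5 d.

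Among the genes called higher, the median effect was 1.05 at 12 d and -0.08 at 5 d, and 978 of 2065 (47.4%) had an effect under 2-fold at 5 d and of at least 2-fold at 12 d. The change with age was the larger one in snap33 for 1679 of them (81.3%), with a median of 1.21 in snap33 against 0.04 in WT. Among the genes called lower, the median effect was -0.65 at 12 d and 0.22 at 5 d, and 485 of 2401 (20.2%) had an effect under 2-fold at 5 d and of at least 2-fold at 12 d. The change with age was the larger one in snap33 for 1545 of them (64.3%), with a median of -0.66 in snap33 against 0.21 in WT. The effect was at least 2-fold at 5 d and under 2-fold at 12 d for 211 genes called lower (8.79%) and 44 called higher (2.13%). It was under 2-fold at both ages for 1658 genes called lower (69.1%) and 938 called higher (45.4%).

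The genes called higher with the smallest p were near one low level in 3 groups and high in snap33 at 12 d. FLOT1 (AT5G25250), a flotillin-like protein of membrane microdomains, had 519, 498 and 478 CPM in the snap33 12 d libraries, against 17.9, 19.2 and 10.2 CPM in the WT 12 d libraries. It had 11.2, 9.6 and 9.77 CPM in the snap33 5 d libraries, against 10.9, 10 and 12.1 CPM in the WT 5 d libraries. All 3 snap33 12 d libraries stood far above the other 9, and the groups overlapped at 5 d. The interaction was 5.07, or 33.6-fold (SE 0.26, edgeR adjusted p = 8.01e-10).

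GLP9 (AT4G14630), a germin-like protein of the cell wall, had 319, 368 and 333 CPM in snap33 and 9.87, 9.62 and 11.4 CPM in WT at 12 d. It had 4.62, 8.88 and 4.53 CPM in snap33 and 9.15, 6.47 and 9.82 CPM in WT at 5 d (interaction 5.54, SE 0.30, edgeR adjusted p = 8.01e-10). YLS9 (AT2G35980), also known as NHL10 and a marker of immune and senescence responses, had 269, 315 and 283 CPM in snap33 and 9.26, 6.97 and 8.67 CPM in WT at 12 d. It had 6.6, 2.88 and 5.24 CPM in snap33 and 6.47, 5.68 and 10.3 CPM in WT at 5 d (interaction 5.71, SE 0.33, edgeR adjusted p = 2.21e-09). For both genes the snap33 12 d libraries stood alone at the top and the 5 d groups overlapped.

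The next in order of p were AT2G18690 (uncharacterised, interaction 3.64), Prx37 (a cell wall peroxidase, 4.32), PAD4 (3.61), AT1G19020 (2.75) and WRKY70 (3.61). PAD4 and WRKY70 are described with the salicylic acid genes. Prx37 stood at 181 ± 11.7 CPM in snap33 against 14.3 ± 2.35 CPM in WT at 12 d, and 9.69 ± 2.13 CPM in snap33 against 15.2 ± 3.87 CPM in WT at 5 d. Its 5 d groups did not overlap either, with snap33 below WT.

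**Figure D2:**
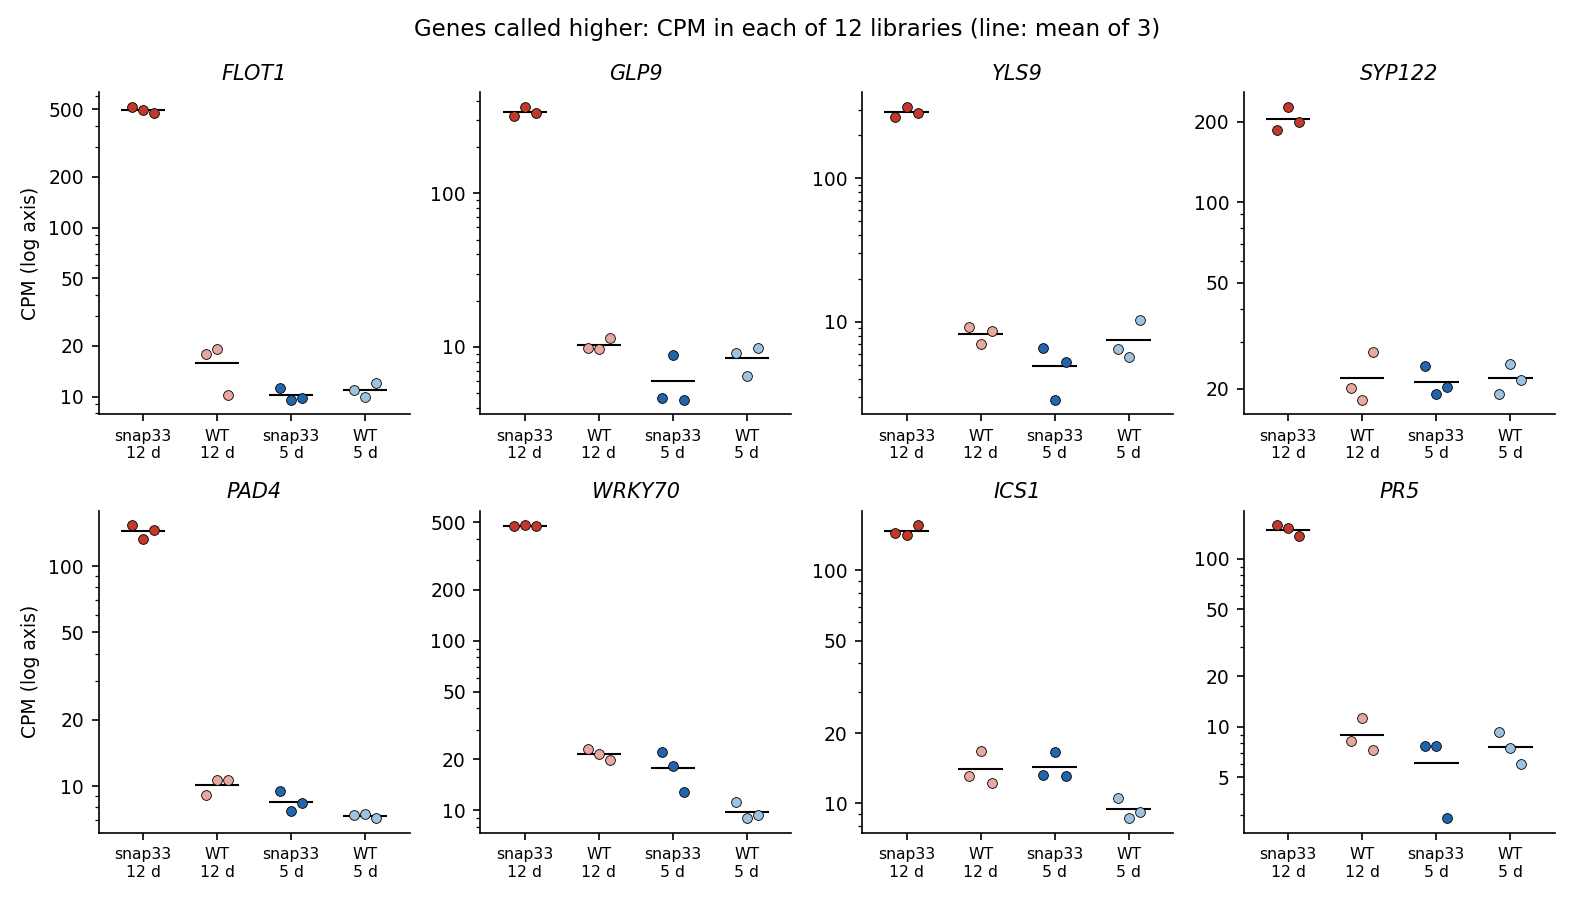
CPM on a log axis of 8 genes called higher, with 1 point per library, a line at the mean of 3, and groups in the order snap33 12 d, WT 12 d, snap33 5 d and WT 5 d. In each panel the 3 snap33 12 d points lie above the other 9, for FLOT1 at 478 to 519 CPM.

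Sequence upstream of these genes is shown because members of a WRKY family that binds the W-box were called higher with them. Windows are the 250 bases before the gene start, from the RefSeq genome and annotation (TAIR10.1), written 5′ to 3′ on the gene's strand. Capitals mark matches, on either strand, to the W-box (TTGACC or TTGACT), GCC-box (GCCGCC), P1BS (GNATATNC), I-box (GATAAG), evening element (AAAATATCT), G-box (CACGTG) and TGA-factor element (TGACG), and a base may belong to more than 1 match. FLOT1, GLP9, YLS9 and AOC1 are leading genes of their direction by p, and SEC1B, GSTF7 and AT5G03545 were chosen after their values and matches were seen. FBA5, the leading gene called lower, is not shown, since its window lies wholly inside the neighbouring gene AT4G26520. The window of AT2G03980, next by p after AOC1 among genes called lower, holds none of these motifs and is not shown either.
FLOT1 (chr5:8749430-8749679, + strand): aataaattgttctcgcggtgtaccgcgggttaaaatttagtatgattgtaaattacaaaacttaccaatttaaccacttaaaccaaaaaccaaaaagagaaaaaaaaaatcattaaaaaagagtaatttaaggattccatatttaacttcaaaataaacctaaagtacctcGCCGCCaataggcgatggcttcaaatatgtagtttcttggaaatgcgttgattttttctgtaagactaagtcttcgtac
GLP9 (chr4:8392575-8392824, + strand): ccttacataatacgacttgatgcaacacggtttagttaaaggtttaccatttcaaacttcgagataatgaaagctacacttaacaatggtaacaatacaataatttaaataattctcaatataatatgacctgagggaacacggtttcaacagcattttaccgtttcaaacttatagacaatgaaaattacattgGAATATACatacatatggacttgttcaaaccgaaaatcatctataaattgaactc
YLS9 (chr2:15110242-15110491, + strand): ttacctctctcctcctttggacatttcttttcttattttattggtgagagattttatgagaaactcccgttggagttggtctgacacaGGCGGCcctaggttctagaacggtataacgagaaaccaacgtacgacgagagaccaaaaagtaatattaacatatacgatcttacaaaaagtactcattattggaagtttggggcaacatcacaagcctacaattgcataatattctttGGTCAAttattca
SEC1B (chr4:7261181-7261430, - strand): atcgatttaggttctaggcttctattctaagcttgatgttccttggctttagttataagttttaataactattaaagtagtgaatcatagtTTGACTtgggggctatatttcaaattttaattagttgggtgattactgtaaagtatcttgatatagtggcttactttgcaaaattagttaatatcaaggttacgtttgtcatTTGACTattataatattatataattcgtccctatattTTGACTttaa
GSTF7 (chr1:659981-660230, - strand): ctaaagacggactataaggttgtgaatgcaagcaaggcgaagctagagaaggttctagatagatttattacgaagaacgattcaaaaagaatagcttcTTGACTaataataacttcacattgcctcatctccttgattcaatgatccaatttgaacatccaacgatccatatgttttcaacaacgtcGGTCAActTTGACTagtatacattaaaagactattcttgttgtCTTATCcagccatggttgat
AOC1 (chr3:9403529-9403778, + strand): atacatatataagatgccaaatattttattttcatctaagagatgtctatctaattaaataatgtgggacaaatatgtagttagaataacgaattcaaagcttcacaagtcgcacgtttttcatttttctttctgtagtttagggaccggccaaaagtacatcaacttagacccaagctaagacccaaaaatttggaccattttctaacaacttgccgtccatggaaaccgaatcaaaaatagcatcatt
AT5G03545 (chr5:894332-894581, + strand): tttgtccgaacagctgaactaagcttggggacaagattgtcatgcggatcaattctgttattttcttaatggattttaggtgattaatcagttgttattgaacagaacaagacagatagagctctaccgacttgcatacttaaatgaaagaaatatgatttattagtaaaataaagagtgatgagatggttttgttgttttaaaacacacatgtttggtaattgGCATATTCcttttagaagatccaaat

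A W-box stood in 800 of 2064 windows of genes called higher (38.8%), in 503 of 1172 of those called higher by at least 2-fold (42.9%) and in 567 of 2386 of genes called lower (23.8%), against 5303 of 18729 windows of all tested genes (28.3%). The YLS9 window holds 1 W-box, at bases -13 to -8 counted back from the gene start, and the SEC1B and GSTF7 windows hold 3 each. The I-box went the other way, in 10.6% of windows of genes called higher and 14.7% of those called lower, against 12.5% of all. The G-box stood in 7.61%, 7.88% and 7.49% of these windows in the same order. A match is a run of letters only, and the AOC1 window holds none of these motifs.

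By size, the largest fitted interactions among genes called higher with at least 10 CPM on average over the 12 libraries belonged to genes that were low in every library outside snap33 at 12 d. ABCG40 (AT1G15520), a transporter known to carry abscisic acid, had 352, 351 and 346 CPM in snap33 and 2.62, 5.14 and 2.56 CPM in WT at 12 d. It had 0.44, 0.96 and 1.19 CPM in snap33 and 0.893, 1.18 and 0.893 CPM in WT at 5 d (interaction 6.84, SE 0.66, edgeR adjusted p = 6.1e-07). The snap33 12 d libraries stood far above the other 9, and the 5 d groups overlapped. BAP2 (AT2G45760), an inhibitor of cell death that works with BON1, stood at 248 ± 12.9 CPM in snap33 against 2.83 ± 1.45 CPM in WT at 12 d, and 1.53 ± 0.925 CPM in snap33 against 1.96 ± 1.23 CPM in WT at 5 d (interaction 6.71, SE 0.66, edgeR adjusted p = 7.61e-07). AT4G18250, a receptor-like kinase, stood at 46.8 CPM in snap33 against 0.554 CPM in WT at 12 d, and 0.532 CPM in snap33 against 0.857 CPM in WT at 5 d (interaction 6.96, SE 0.79). AT5G46960, an invertase inhibitor-like gene, had 1045 reads in snap33 and 1 in WT at 12 d, and 19 in snap33 and 10 in WT at 5 d over 3 libraries each, so the scaled snap33 to WT ratio was 1046 (95% interval 187 to 41340.0) at 12 d and 2.07 (95% interval 0.916 to 4.98) at 5 d. AT4G10860, uncharacterised, had 1465 reads in snap33 and 3 in WT at 12 d, and 0 in snap33 and 2 in WT at 5 d, with a ratio of 489 (95% interval 167 to 2372) at 12 d. AOX1D, an alternative oxidase of mitochondria, had 2230 reads in snap33 and 89 in WT at 12 d, and 0 in snap33 and 1 in WT at 5 d, with a ratio of 25.1 (95% interval 20.3 to 31.4) at 12 d. At 5 d no more than 1 read of AOX1D was counted in either group. Its adjusted p was 0.0497, and its call was lost under 13 of 22 settings (8.33e-05 to 1.00). Those 13 include leaving out any 1 of 9 libraries, the exceptions being WT 12 d replicate 3 and WT 5 d replicates 1 and 2.

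Gene lists are described by counts of called members beside the shares of all tested genes, 11.0% higher and 12.8% lower, and by the median interaction. Of 762 places on 39 lists 688 had enough reads to test, and counts below are of tested members. A value alone in brackets after a gene is its log2 interaction. Where 0 members were called in a direction by edgeR, DESeq2 and limma-voom also called 0, and at most 1 member had an unadjusted p under 0.05.

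Several secretion partners of SNAP33 were called higher. Of 22 genes on a list of plasma-membrane and cell-plate SNAREs and their partners, 14 had enough reads to test. Of these, 6 were called higher, 0 lower and 8 not, with a median interaction of 0.40 against -0.02 for all genes. SYP122 (AT3G52400), a syntaxin close to SYP121, had 186, 228 and 200.4 CPM in snap33 and 20.1, 18.2 and 27.4 CPM in WT at 12 d. It had 24.4, 19.2 and 20.3 CPM in snap33 and 19.2, 24.9 and 21.7 CPM in WT at 5 d (interaction 3.27, SE 0.22, edgeR adjusted p = 1.17e-08). The snap33 12 d libraries stood far above the rest, which overlapped. SYP121 (AT3G11820), the syntaxin needed for penetration resistance to mildew, stood at 138 ± 15.6 CPM in snap33 against 53.9 ± 5.39 CPM in WT at 12 d, and 52.2 ± 3.43 CPM in snap33 against 46.7 ± 6.99 CPM in WT at 5 d (interaction 1.20, SE 0.18, edgeR adjusted p = 9.95e-05). The vesicle SNAREs VAMP722 and VAMP721, which pair with SYP121 and SNAP33, had interactions of 1.41 (SE 0.15) and 0.53 (SE 0.15). VAMP722 stood at 250.4 CPM in snap33 against 95.1 CPM in WT at 12 d, and 89 CPM in snap33 against 89.5 CPM in WT at 5 d. SEC1B (AT4G12120), of the Sec1/Munc18 family that guides SNARE pairing, stood at 27.4 ± 5.49 CPM in snap33 against 2.43 ± 0.972 CPM in WT at 12 d, and 1.49 ± 0.542 CPM in snap33 against 1.73 ± 0.481 CPM in WT at 5 d (interaction 3.72, SE 0.56, edgeR adjusted p = 8.88e-05). The remaining call is SNAP33, described above.

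Of 20 exocyst subunits, which tether vesicles before fusion, 4 were called higher and 2 lower (median 0.32). EXO70B2, a subunit with a role in immunity, stood at 63.4 CPM in snap33 against 8.91 CPM in WT at 12 d, and 5.55 CPM in snap33 against 4.57 CPM in WT at 5 d (interaction 2.56, SE 0.35, edgeR adjusted p = 3.03e-05). EXO70E1 (0.82), EXO70E2 (0.71) and EXO70B1 (0.48) were the others called higher, and EXO70H7 (-1.11) and EXO70H1 (-0.80) were called lower. Without WT 12 d replicate 3, 8 were called higher. The 2 calls lower became 1 with either replicate block, by DESeq2, with no low-count filter and without any 1 library except WT 12 d replicate 3 and snap33 5 d replicate 2. An antisense gene covers 2221 bases of EXO70H7.

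The unfolded protein response raises chaperones of the endoplasmic reticulum, where secreted proteins fold. Of its 16 members, 13 were called higher, 0 lower and 3 not, with a median interaction of 0.95. The median effect was 0.63 at 12 d and -0.22 at 5 d. ERDJ3B, a co-chaperone, had 114, 110.2 and 109 CPM in snap33 and 49.9, 49.6 and 54.4 CPM in WT at 12 d. It had 46.4, 51.6 and 48.6 CPM in snap33 and 61.6, 74.1 and 69.2 CPM in WT at 5 d (interaction 1.60, SE 0.15, edgeR adjusted p = 5.49e-07). Its snap33 libraries stood above WT at 12 d and below WT at 5 d, with no overlap at either age. CRT3, a calreticulin that matures immune receptors, stood at 296 CPM in snap33 against 97.5 CPM in WT at 12 d, and 103 CPM in snap33 against 89.9 CPM in WT at 5 d (interaction 1.40, SE 0.16, edgeR adjusted p = 3.71e-06), and BZIP60, the transcription factor of the response, at 258 CPM in snap33 against 94 CPM in WT at 12 d, and 89 CPM in snap33 against 76.9 CPM in WT at 5 d (interaction 1.25, SE 0.16, edgeR adjusted p = 2.19e-05). The log2 snap33 effect on the chaperone BIP2 was 0.47 at 12 d and -0.55 at 5 d, and on BIP3 3.31 at 12 d and 1.43 at 5 d.

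Salicylic acid genes were the list with the highest median interaction among lists of 8 or more tested members. Of 28 tested members, 17 were called higher, 1 lower and 10 not, with a median of 2.36. The median effect was 2.52 at 12 d and 0.27 at 5 d. PAD4 (AT3G52430), which works with EDS1 upstream of salicylic acid, had 154, 133 and 146 CPM in snap33 and 9.06, 10.6 and 10.6 CPM in WT at 12 d. It had 9.46, 7.68 and 8.34 CPM in snap33 and 7.37, 7.45 and 7.14 CPM in WT at 5 d (interaction 3.61, SE 0.22, edgeR adjusted p = 3.38e-09). WRKY70 (AT3G56400), a transcription factor that favours salicylic acid over jasmonate responses, had 476, 480.4 and 473 CPM in snap33 and 23.2, 21.6 and 19.9 CPM in WT at 12 d. It had 22.2, 18.2 and 12.9 CPM in snap33 and 11.2, 9.02 and 9.38 CPM in WT at 5 d (interaction 3.61, SE 0.23, edgeR adjusted p = 5.08e-09). For both genes snap33 stood above WT with no overlap at either age, by far more at 12 d.

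CBP60g (AT5G26920), an activator of salicylic acid synthesis, stood at 188 ± 6.85 CPM in snap33 against 14.8 ± 0.308 CPM in WT at 12 d, and 14.7 ± 3.9 CPM in snap33 against 11.6 ± 2.99 CPM in WT at 5 d (interaction 3.33, SE 0.25, edgeR adjusted p = 3.86e-08). ICS1 (AT1G74710), the enzyme that starts that synthesis and was named after its values were seen, stood at 148 ± 7.89 CPM in snap33 against 14 ± 2.41 CPM in WT at 12 d, and 14.3 ± 1.96 CPM in snap33 against 9.42 ± 0.963 CPM in WT at 5 d (interaction 2.79, SE 0.22, edgeR adjusted p = 6.49e-08). EDS5, its exporter from the chloroplast (3.02), SARD1 (3.13), EDS1 (1.88), SAG101 (1.94) and NIMIN2 (4.77) were called higher too. So were the receptors of the hormone NPR1 (0.84), NPR3 (2.55) and NPR4 (2.48), and genes whose products inactivate it: DMR6 (1.37), AT4G10500 (4.77) and UGT76B1 (1.92). The others called higher were WRKY54, described below, and AT5G52810 (1.85). The call lower was BSMT1, which methylates salicylic acid and is known to respond to jasmonate (adjusted p = 0.00752). It had 28 reads in snap33 and 57 in WT at 12 d, and 11 in snap33 and 0 in WT at 5 d. Its scaled snap33 to WT ratio was 0.492 (95% interval 0.301 to 0.786) at 12 d. With 0 WT reads at 5 d, the lower 95% limit of the ratio at that age was 2.73. The 5 d ratio was 3.99 with a floor of 3 reads put in for the WT 5 d group.

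Of 12 pathogenesis-related and systemic resistance markers, 4 were called higher (PR5, PCR1, PR3 and PR4), 1 lower (DIR1) and 7 not (median 0.91). PR5 (AT1G75040), a thaumatin-like protein, had 159, 152 and 136 CPM in snap33 and 8.26, 11.3 and 7.29 CPM in WT at 12 d. It had 7.7, 7.68 and 2.86 CPM in snap33 and 9.38, 7.45 and 6.03 CPM in WT at 5 d (interaction 4.36, SE 0.35, edgeR adjusted p = 6.49e-08). The snap33 12 d libraries stood alone at the top. DIR1, a lipid transfer protein of systemic resistance, stood at 82.5 CPM in snap33 against 148 CPM in WT at 12 d, and 172 CPM in snap33 against 136 CPM in WT at 5 d (interaction -1.17, SE 0.20, edgeR adjusted p = 0.000331), with an antisense gene over all 813 of its bases. PR1, the usual marker of the salicylic acid response and named here after its values were seen, had 21880 reads in snap33 and 150 in WT at 12 d, and 3 in snap33 and 1 in WT at 5 d. Its scaled ratio was 146 (95% interval 124 to 173) at 12 d and 3.27 (95% interval 0.262 to 172) at 5 d, and the interaction was not called by edgeR (adjusted p = 0.163). DESeq2 (0.0013) and limma-voom (0.000452) called it, and the adjusted p over the 22 settings ran from 0.000452 to 0.946.

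WRKY transcription factors and immune receptors followed the same direction. Of 25 WRKY genes 12 were called higher and 0 lower (median 1.32), and of 42 receptors and receptor kinases 21 were called higher and 0 lower (median 0.96, with 1 lower at an unadjusted p under 0.05). Without WT 12 d replicate 3, 1 receptor was called lower. WRKY51 (AT5G64810) had 116, 114 and 109 CPM in snap33 and 2.21, 2.99 and 1.58 CPM in WT at 12 d. It had 3.3, 1.68 and 3.1 CPM in snap33 and 2.68, 2.55 and 3.13 CPM in WT at 5 d (interaction 5.64, SE 0.39, edgeR adjusted p = 1.4e-08). WRKY48 stood at 67.9 CPM in snap33 against 13.3 CPM in WT at 12 d, and 8.83 CPM in snap33 against 7.18 CPM in WT at 5 d (interaction 2.05) and WRKY18 at 130.4 CPM in snap33 against 27.5 CPM in WT at 12 d, and 28.1 CPM in snap33 against 17.7 CPM in WT at 5 d (1.57). WRKY33, which drives camalexin synthesis, was at 1.32, WRKY53 at 2.74 and WRKY46 at 1.33. A W-box stood in 14 of 25 WRKY windows (56.0%) and 23 of 42 receptor windows (54.8%), against 28.3% of all. It stood in 5 of 28 windows of the salicylic acid list (17.9%). The share did not follow direction in every list. Among other lists with more calls higher, it was 56.5% for tau-class glutathione transferases but 8.33% for the pathogenesis-related markers. Among lists with more calls lower, it was 16.2% for photosystems and antennae. It was 44.4% for CC-type glutaredoxins with nitrate response genes and 41.7% for endodermis genes, which also had more calls lower.

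Among the receptors, SOBIR1, a kinase that signals for receptor-like proteins, stood at 252 ± 17.4 CPM in snap33 against 44.2 ± 8.27 CPM in WT at 12 d, and 45.4 ± 6.77 CPM in snap33 against 31.1 ± 0.697 CPM in WT at 5 d (interaction 1.96, SE 0.20, edgeR adjusted p = 1.05e-06). HR4, of the RPW8 resistance family, stood at 151 CPM in snap33 against 14.8 CPM in WT at 12 d, and 8.91 CPM in snap33 against 5.38 CPM in WT at 5 d (interaction 2.62, SE 0.32, edgeR adjusted p = 1.08e-05). WAK2, a kinase bound to the cell wall, stood at 50.6 CPM in snap33 against 9.6 CPM in WT at 12 d, and 10.3 CPM in snap33 against 15.2 CPM in WT at 5 d (interaction 2.96, SE 0.22, edgeR adjusted p = 2.98e-08). SOBIR1 and WAK2 overlap an antisense gene by 478 and 994 bases. BAK1 (0.87) and CERK1 (1.00), which sense bacterial and chitin signals with partner receptors, RBOHD (0.91), which makes reactive oxygen, and the kinases MPK3 (0.75) and MPK4 (1.21) were called higher too. The helper resistance genes ADR1, ADR1-L1 and ADR1-L2 had interactions of 0.97, 0.81 and 0.57.

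Camalexin and indole glucosinolates are defence compounds made from tryptophan. Of 18 genes of their pathways 10 were called higher, 2 lower and 6 not (median 0.97). CYP71A12 (4.54), PAD3 (3.84), the regulators MYB122 (4.73) and MYB51 (1.85), and PEN2 (AT2G44490) (0.59) were among those called higher. MYB122 stood at 27.1 CPM in snap33 against 1.53 CPM in WT at 12 d, and 0.772 CPM in snap33 against 1.23 CPM in WT at 5 d. CYP79B3 (-0.69) and CYP83B1 (-0.51) were called lower. With either replicate block or RLE scaling 1 member was called lower, and likewise without any 1 library except WT 12 d replicate 3 and WT 5 d replicate 3.

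Tau-class glutathione transferases, enzymes of detoxification, had 9 of 23 called higher and 3 lower (median 0.74). GSTU10 stood at 134 CPM in snap33 against 9.76 CPM in WT at 12 d, and 7.21 CPM in snap33 against 7.02 CPM in WT at 5 d (interaction 3.73, SE 0.34, edgeR adjusted p = 3.03e-07), GSTU1 at 54.4 CPM in snap33 against 15.3 CPM in WT at 12 d, and 13.6 CPM in snap33 against 15.4 CPM in WT at 5 d (2.01) and GSTU24 at 115 CPM in snap33 against 51.2 CPM in WT at 12 d, and 51.8 CPM in snap33 against 82.6 CPM in WT at 5 d (1.85). The 3 called lower were GSTU18 (-1.22), GSTU5 (-0.65) and GSTU17 (-0.60). CC-type glutaredoxins with nitrate response genes split, with 3 of 18 called higher and 6 lower (median -0.59). ROXY19, a glutaredoxin that binds TGA factors, stood at 101 ± 20.3 CPM in snap33 against 2.09 ± 0.444 CPM in WT at 12 d, and 4.19 ± 1.94 CPM in snap33 against 3.02 ± 0.728 CPM in WT at 5 d (interaction 5.08, SE 0.48, edgeR adjusted p = 4.73e-07), and GRXS13 at 135 CPM in snap33 against 30.8 CPM in WT at 12 d, and 44.4 CPM in snap33 against 34.9 CPM in WT at 5 d (1.77). AT2G47880 (1.98) was the other called higher. AT2G30540 (-1.53) led the 6 called lower, a count that was 3 when any of snap33 12 d replicate 1, snap33 5 d replicate 3 or WT 5 d replicate 2 was left out. Of 14 heat-shock genes 4 were called higher and 0 lower, with a median of -0.04 that lay between -0.12 and 0.10 over the settings. They were HSP17.4 (2.68), HSFB1 (2.36), HSP90.1 (1.09) and ROF2 (0.81).

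GSTF7 and CYP81F2 had effects of opposite sign at the 2 ages, each at least 2-fold, as did 37 genes called higher (1.79%) and 15 called lower (0.625%) in all. GSTF7 (AT1G02920), a glutathione transferase of the phi class, had 284, 295 and 304 CPM in snap33 and 41.1, 52.9 and 49.1 CPM in WT at 12 d. It had 18.7, 14.4 and 14.5 CPM in snap33 and 26.8, 29.6 and 46.4 CPM in WT at 5 d (interaction 3.73, SE 0.24, edgeR adjusted p = 5.94e-09). All 3 snap33 libraries stood above WT at 12 d and below WT at 5 d. CYP81F2 (AT5G57220), which modifies indole glucosinolates in defence, stood at 24.4 ± 3.94 CPM in snap33 against 5.29 ± 1.74 CPM in WT at 12 d, and 3.13 ± 1.47 CPM in snap33 against 8.63 ± 0.905 CPM in WT at 5 d (interaction 3.65, SE 0.38, edgeR adjusted p = 1.61e-06). WRKY54, a partner of WRKY70, had 466 reads in snap33 and 6 in WT at 12 d, and 3 in snap33 and 16 in WT at 5 d, with scaled ratios of 77.7 (95% interval 35.4 to 213) at 12 d and 0.204 (95% interval 0.0381 to 0.714) at 5 d. PGAZAT, a polygalacturonase, had 361 reads in snap33 and 2 in WT at 12 d, and 10 in snap33 and 24 in WT at 5 d, with ratios of 181 (95% interval 49.6 to 1497) and 0.454 (95% interval 0.194 to 0.985). In the other direction MES18, a methyl esterase, stood at 7.03 ± 0.572 CPM in snap33 against 16.5 ± 0.0674 CPM in WT at 12 d, and 14.1 ± 3.1 CPM in snap33 against 6.91 ± 0.396 CPM in WT at 5 d (interaction -2.26, SE 0.26, edgeR adjusted p = 5.24e-06). CIPK20, a kinase of calcium signalling, stood at 14.4 CPM in snap33 against 30.0 CPM in WT at 12 d, and 16.6 CPM in snap33 against 4.25 CPM in WT at 5 d (-2.99), AT2G34930, a leucine-rich repeat gene, at 6.1 CPM in snap33 against 15.5 CPM in WT at 12 d, and 11.9 CPM in snap33 against 2.97 CPM in WT at 5 d (-3.33), and AT5G47330, an alpha/beta-hydrolase, at 4.18 CPM in snap33 against 10.8 CPM in WT at 12 d, and 3.25 CPM in snap33 against 0.624 CPM in WT at 5 d (-3.66). An antisense gene covers 355 bases of MES18 and 3023 of AT2G34930.

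**Figure D3:**
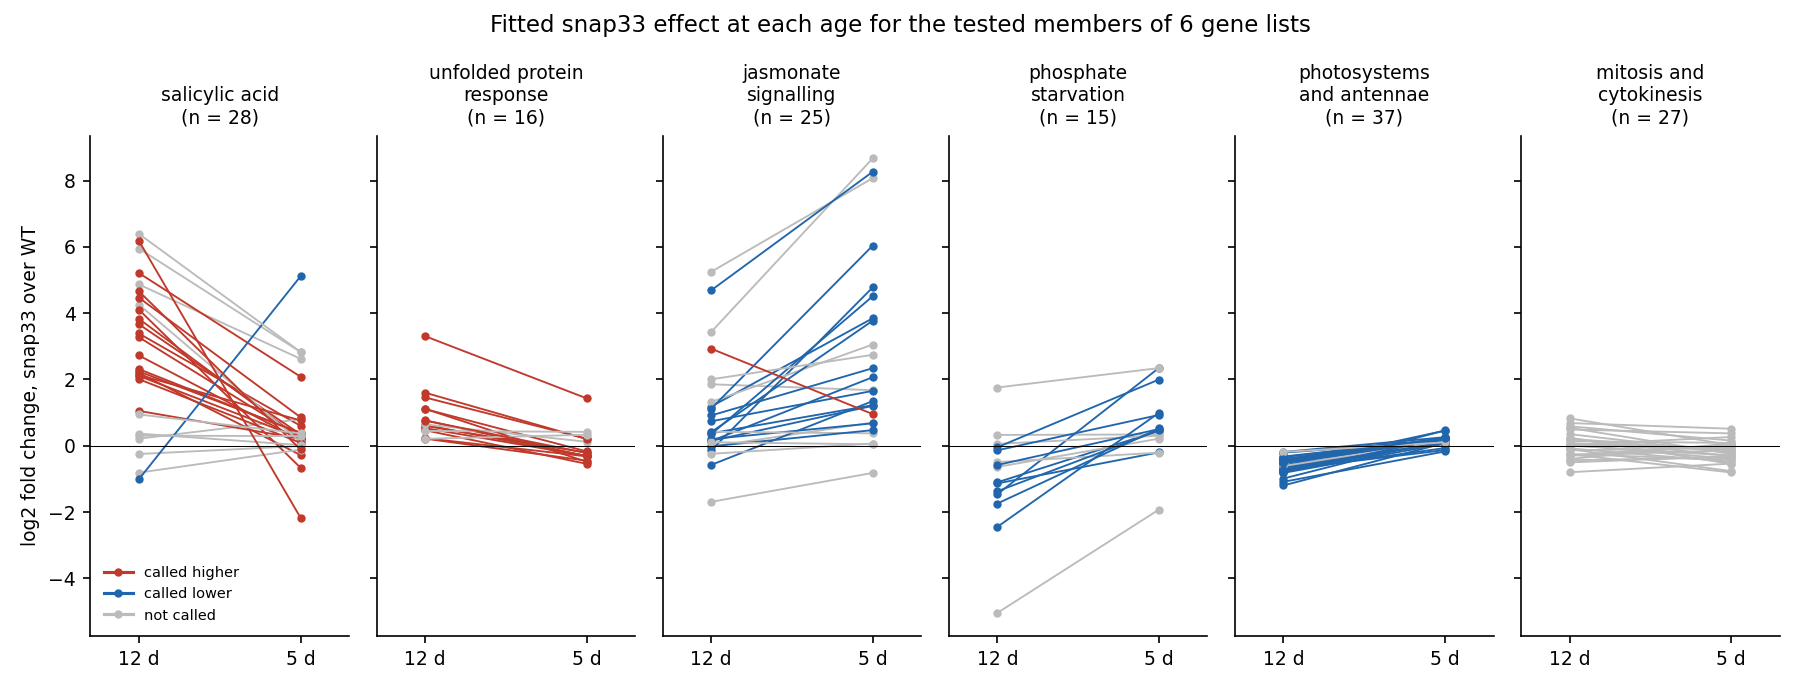
Fitted log2 fold change of snap33 over WT at 12 d (left) and 5 d (right) for each tested member of 6 gene lists, with 1 line per gene. Lines of the salicylic acid list mostly fall to the right (24 of 28, median 2.52 at 12 d and 0.27 at 5 d), those of jasmonate signalling mostly climb to the right (0.41 and 1.68), and none of the 27 lines of mitosis and cytokinesis was called.

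Jasmonate, a hormone made from fatty acids, acts in the response to wounding and insects. Of 18 tested genes of jasmonate synthesis, 8 were called lower, 2 higher and 8 not (median -0.75, with a median effect of 0.64 at 12 d and 1.38 at 5 d). AOC1 (AT3G25760), an allene oxide cyclase, had 47.9, 44.6 and 52.5 CPM in the snap33 12 d libraries, against 44.7, 36.5 and 45.9 CPM in the WT 12 d libraries. It had 90.9, 90.0 and 57 CPM in the snap33 5 d libraries, against 6.03, 6.47 and 8.04 CPM in the WT 5 d libraries (interaction -3.34, SE 0.26, edgeR adjusted p = 4.39e-08). The groups overlapped at 12 d, and at 5 d the 3 WT libraries stood far below all others. LOX2 (AT3G45140), a lipoxygenase of the chloroplast, had 462, 459.9 and 431 CPM in snap33 and 370.5, 246 and 243 CPM in WT at 12 d. It had 595, 537 and 377 CPM in snap33 and 72.1, 47.2 and 66.8 CPM in WT at 5 d (interaction -2.37, SE 0.25, edgeR adjusted p = 2.14e-06). Again the WT 5 d libraries were the lowest. AOS, the allene oxide synthase, stood at 349.8 CPM in snap33 against 225 CPM in WT at 12 d, and 532 CPM in snap33 against 152 CPM in WT at 5 d (interaction -1.17, SE 0.19, edgeR adjusted p = 0.000218). AOC3, at 81.8 CPM in snap33 against 21.4 CPM in WT at 12 d, and 28.4 CPM in snap33 against 15 CPM in WT at 5 d (1.03), and KAT2 (AT2G33150) (0.81) were called higher, with a larger effect at 12 d.

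Of 25 genes of jasmonate signalling and its MYC branch, 14 were called lower, 1 higher and 10 not (median -1.06, with a median change with age of 0.29 in snap33 and 1.59 in WT). VSP1 (AT5G24780), a storage protein and the classic marker of this branch, had 119, 149.5 and 154 CPM in snap33 and 90.0, 65.4 and 39 CPM in WT at 12 d. It had 209, 253 and 104 CPM in snap33 and 3.57, 2.74 and 2.23 CPM in WT at 5 d (interaction -4.92, SE 0.48, edgeR adjusted p = 6.29e-07). The snap33 libraries stood above WT at both ages without overlap, and the WT 5 d libraries were far below the other 9. VSP2 stood at 240.1 ± 23.1 CPM in snap33 against 189 ± 90.7 CPM in WT at 12 d, and 169.8 ± 50.2 CPM in snap33 against 7.44 ± 1.49 CPM in WT at 5 d (interaction -4.17, SE 0.41, edgeR adjusted p = 8.78e-07), and CORI3 at 259 ± 14.8 CPM in snap33 against 195 ± 68.3 CPM in WT at 12 d, and 213 ± 62.7 CPM in snap33 against 15.7 ± 7.39 CPM in WT at 5 d (interaction -3.37, SE 0.38, edgeR adjusted p = 4.43e-06). JAZ7, a repressor of the pathway, was called lower and had 81 reads in snap33 and 89 in WT at 12 d, and 59 in snap33 and 2 in WT at 5 d (edgeR adjusted p = 0.000121). Its scaled snap33 to WT ratio was 0.911 (95% interval 0.666 to 1.25) at 12 d and 32.1 (95% interval 8.51 to 271.5) at 5 d. Its relatives JAZ5 (-2.67), JAZ9 (-1.93) and JAZ10 (-1.93) and the transcription factor MYC2 (-0.92) were called lower. ANAC055 (1.97), a NAC factor, was the member called higher.

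Of 20 members of the ethylene and defensin list, 7 were called higher, 3 lower and 10 not (median 0.22). The 3 called lower were PDF1.2, PDF1.2c and PDF1.3, defensins of the PDF1 family, of which PDF1.1 and PDF1.2b were not called, and those called higher were the synthesis genes ACS2 (2.39), ACS6 (2.08), ACS7 (1.38) and ACO1 (AT2G19590) (1.48), the factors ORA59 (2.07) and ERF6 (1.08), and PR4 (1.08). PDF1.3 (AT2G26010) had 740.1, 1018 and 867 CPM in snap33 and 143, 105 and 114 CPM in WT at 12 d. It had 206, 289.6 and 104 CPM in snap33 and 0.447, 0.98 and 1.56 CPM in WT at 5 d (interaction -4.76, SE 0.53, edgeR adjusted p = 4.23e-06). The snap33 libraries stood above WT at both ages, and the WT 5 d libraries were near 0. On the CPM scale its difference was larger at 12 d, by 555 CPM, so the direction holds for the ratio alone. PDF1.2, at 695 CPM in snap33 against 48.4 CPM in WT at 12 d, and 124 CPM in snap33 against 0.494 CPM in WT at 5 d (interaction -4.04, SE 0.67, edgeR adjusted p = 0.000219), and PDF1.2c also changed sign between scales. PDF1.2c had 4105 reads in snap33 and 297 in WT at 12 d, and 702 in snap33 and 2 in WT at 5 d, a ratio of 13.8 (95% interval 12.3 to 15.6) at 12 d and 382 (95% interval 105 to 3163) at 5 d, and its call (adjusted p = 0.0157, 4.33e-05 to 0.13 over the settings) was lost by limma-voom, by robust estimation and without WT 5 d replicate 1. These genes are near-identical, so reads may be divided between them with error. In all, 41 genes called lower and 4 called higher had opposite signs on the 2 scales. On the ethylene and defensin list, the count lower was 5 with either replicate block, with no low-count filter and without snap33 5 d replicate 3. It was 2 by limma-voom and 2 to 5 over the settings.

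Other genes led the called-lower direction by p or by size. CSLA01, a cellulose synthase-like gene, had 473 reads in snap33 and 111 in WT at 12 d, and 834 in snap33 and 1 in WT at 5 d, with ratios of 4.26 (95% interval 3.46 to 5.29) and 908 (95% interval 163 to 35920.0). AT1G14250, a nucleoside phosphatase-like gene, had 46.4, 60.2 and 51.6 CPM in snap33 and 26, 16.6 and 20.1 CPM in WT at 12 d. It had 66.2, 60.2 and 37.2 CPM in snap33 and 0.67, 0.98 and 0.67 CPM in WT at 5 d (interaction -4.74, SE 0.43, edgeR adjusted p = 2.71e-07). FAMT, a methyltransferase, had 1422 reads in snap33 and 429 in WT at 12 d, and 204 in snap33 and 0 in WT at 5 d. Its ratio was 3.32 (95% interval 2.975 to 3.70) at 12 d, and the lower 95% limit of its ratio at 5 d was 59.7. With a floor of 3 reads put in for the WT 5 d group, the ratio at 12 d was 22.3-fold lower than at 5 d. On the CPM scale its difference was larger at 12 d, by 46.3 CPM, so its sign too depends on the scale. AT2G03980, a GDSL lipase, stood at 37.8 ± 4.19 CPM in snap33 against 48.2 ± 3.43 CPM in WT at 12 d, and 75.1 ± 5.85 CPM in snap33 against 21.6 ± 0.568 CPM in WT at 5 d (interaction -2.15, SE 0.17, edgeR adjusted p = 6.49e-08). In these 4 genes the WT 5 d libraries were the lowest of the 12, and in others another group stood apart. FBA5 and AT5G03545 are given with the Calvin cycle and with phosphate starvation. CYP710A2, a sterol desaturase, stood at 70.1 ± 3.52 CPM in snap33 against 91.7 ± 10.6 CPM in WT at 12 d, and 220.1 ± 11.2 CPM in snap33 against 75.8 ± 9.06 CPM in WT at 5 d (interaction -1.93, SE 0.17, edgeR adjusted p = 1.44e-07), with the snap33 5 d libraries far above the rest. AT3G22142, a lipid-transfer-like gene, stood at 6.85 CPM in snap33 against 32.1 CPM in WT at 12 d, and 58 CPM in snap33 against 46.1 CPM in WT at 5 d (-2.56), with the snap33 12 d libraries far below the rest and an antisense gene over all 4555 of its bases.

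**Figure D4:**
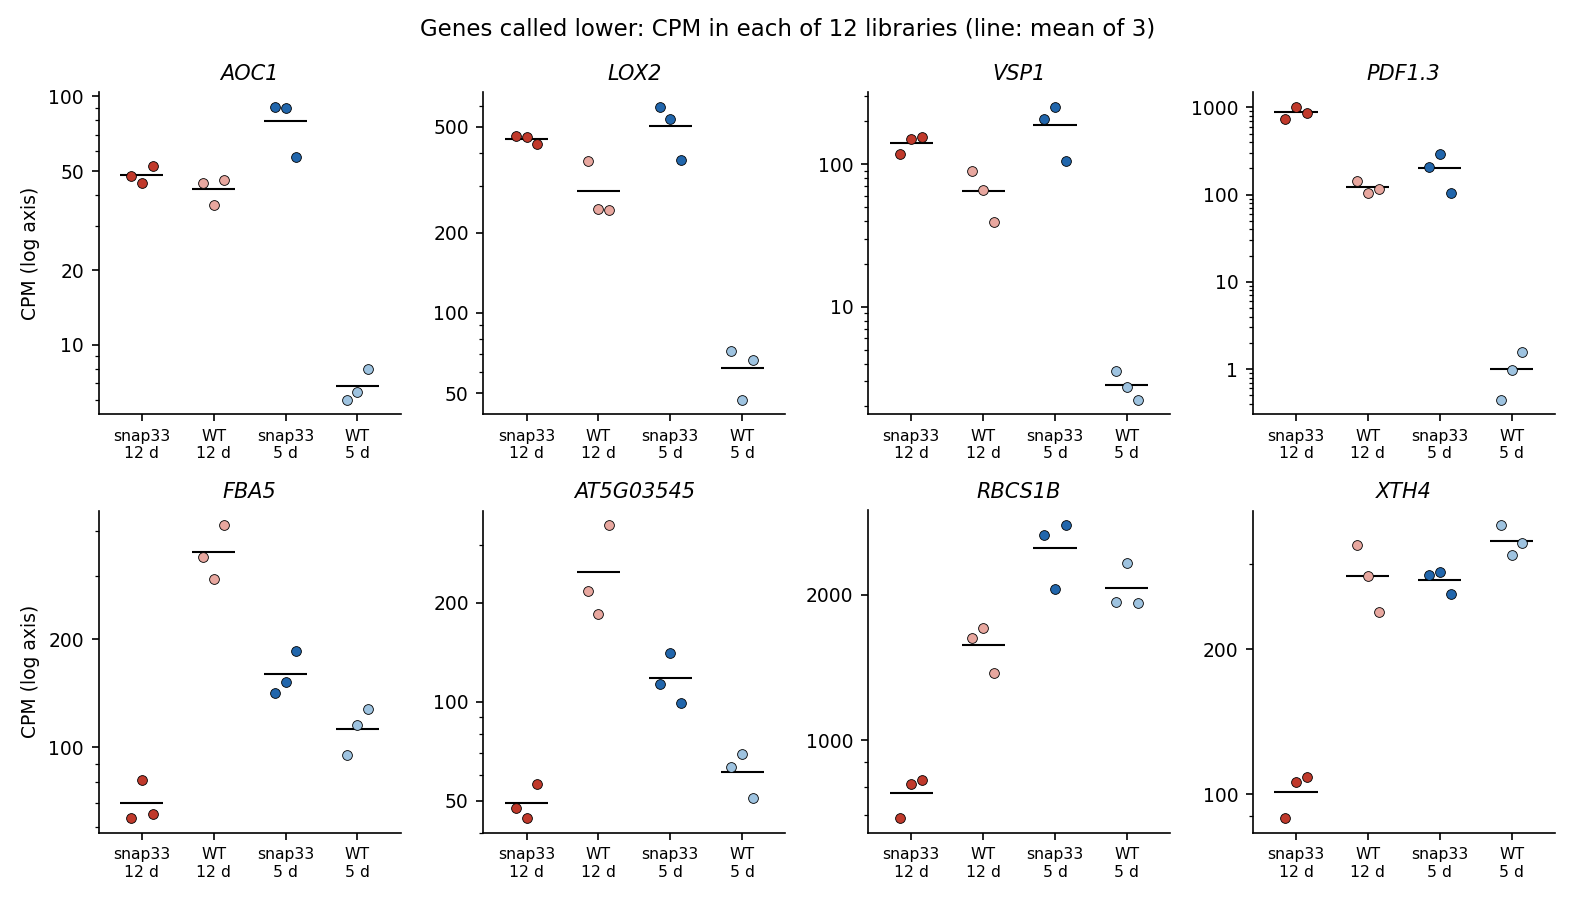
CPM on a log axis of 8 genes called lower, with 1 point per library, a line at the mean of 3, and groups in the order snap33 12 d, WT 12 d, snap33 5 d and WT 5 d. In the upper row the WT 5 d points lie far below the rest (AOC1 at 6.03 to 8.04 CPM), and in the lower row the snap33 12 d group has the lowest mean of the 4.

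Abscisic acid, cold and dehydration genes, which protect cells from water loss, had 9 of 21 members called lower and 0 higher (median -0.47, with 1 higher at an unadjusted p under 0.05). RD20, a caleosin, had 466, 474 and 501 CPM in snap33 and 552, 268 and 329 CPM in WT at 12 d. It had 34.3, 60.9 and 29.6 CPM in snap33 and 6.03, 1.96 and 3.35 CPM in WT at 5 d (interaction -3.15, SE 0.44, edgeR adjusted p = 4.68e-05). The groups overlapped at 12 d and stood apart at 5 d, and on the CPM scale the difference was larger at 12 d, by 59.4 CPM. COR15A, a chloroplast protein of cold tolerance, stood at 39.2 CPM in snap33 against 29 CPM in WT at 12 d, and 15.4 CPM in snap33 against 2.14 CPM in WT at 5 d (interaction -2.40, SE 0.37, edgeR adjusted p = 0.000122), and KIN2 at 473 CPM in snap33 against 545 CPM in WT at 12 d, and 434 CPM in snap33 against 302 CPM in WT at 5 d (-0.73). COR15B was called lower too, with 12 reads in snap33 and 1 in WT at 5 d, and its call was lost in 3 of 22 settings. The count lower was 7 by DESeq2 and by limma-voom, and 6 to 10 over the settings. Without WT 12 d replicate 3, or with no low-count filter, 1 member was called higher.

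Senescence genes went both ways, with 4 of 17 called higher and 6 lower (median -0.10, between -0.18 and 0.12 over the settings). JUB1, a NAC factor that delays senescence, stood at 24.1 CPM in snap33 against 1.36 CPM in WT at 12 d, and 0.851 CPM in snap33 against 0.913 CPM in WT at 5 d (interaction 4.22, SE 0.65, edgeR adjusted p = 0.000105), and SAG21 at 813 CPM in snap33 against 398 CPM in WT at 12 d, and 185 CPM in snap33 against 218 CPM in WT at 5 d (1.26). SEN1 (AT4G35770), a gene induced by darkness, stood at 181 CPM in snap33 against 209.7 CPM in WT at 12 d, and 137 CPM in snap33 against 15.2 CPM in WT at 5 d (interaction -3.35, SE 0.46, edgeR adjusted p = 3.53e-05). Without snap33 5 d replicate 3, 3 were called lower. Flavonoid genes also split, with 4 of 20 called higher and 4 lower (median -0.11, between -0.19 and 0.04). CHS, the first enzyme of the pathway, stood at 639 CPM in snap33 against 857 CPM in WT at 12 d, and 1705 CPM in snap33 against 1361 CPM in WT at 5 d (-0.75), and MYBL2, a repressor, at 32.5 CPM in snap33 against 60.3 CPM in WT at 12 d, and 52 CPM in snap33 against 19.4 CPM in WT at 5 d (-2.31). PAP2 (AT1G66390), a regulator of anthocyanin, stood at 16.5 CPM in snap33 against 1.94 CPM in WT at 12 d, and 1.71 CPM in snap33 against 1.68 CPM in WT at 5 d (3.04). LDOX (0.74), AT4G14090 (0.64) and TT19 (0.52) were called higher, each with the opposite sign on the CPM scale. The count higher was 2 with upper-quartile scaling, with the harvest-date block, and without any 1 of 8 libraries, the exceptions being snap33 12 d replicate 2, WT 12 d replicate 1, snap33 5 d replicate 1 and WT 5 d replicate 2.

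Photosynthesis genes of the nucleus were called lower nearly throughout. Of 37 photosystem and antenna genes, 33 were called lower, 0 higher and 4 not (median -0.65, with a median effect of -0.51 at 12 d and 0.16 at 5 d). Their summed level was 31230 to 34200 CPM in snap33 against 43390 to 47810 CPM in WT at 12 d, and 47340 to 57960 CPM in snap33 against 44730 to 53780 CPM in WT at 5 d. PSAN, a subunit of photosystem I, had 354, 403 and 395 CPM in snap33 and 739, 861 and 687 CPM in WT at 12 d. It had 813, 637 and 925 CPM in snap33 and 610.2, 797 and 597 CPM in WT at 5 d (interaction -1.24, SE 0.19, edgeR adjusted p = 0.000104). The snap33 12 d libraries were the lowest, and the 5 d groups overlapped. LHB1B1 and LHCB2.3, antenna proteins of photosystem II, had interactions of -1.06 (SE 0.15) and -1.27 (SE 0.18). An I-box stood in 11 of the 37 windows (29.7%), against 12.5% of all. This share did not follow direction in every list either. Of lists with more calls higher, the ethylene and defensin list had 35.0%, DNA replication 31.6%, WRKY genes 28.0% and the unfolded protein response 12.5%. Of lists with more calls lower, endodermis genes had 33.3%, the Calvin cycle 21.1%, and expansins and xyloglucan enzymes 4.76%.

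The Calvin cycle, which fixes carbon dioxide, had 16 of 19 members called lower and 0 higher (median -0.70). PRK, its phosphoribulokinase, had 453, 494 and 515 CPM in snap33 and 870.5, 843 and 794 CPM in WT at 12 d. It had 1046, 938 and 1042 CPM in snap33 and 892, 922 and 872 CPM in WT at 5 d (interaction -0.95, SE 0.12, edgeR adjusted p = 1.89e-05). RBCS1B, a small subunit of Rubisco with close copies, stood at 776 CPM in snap33 against 1571 CPM in WT at 12 d, and 2497 CPM in snap33 against 2060.0 CPM in WT at 5 d (interaction -1.29, SE 0.17, edgeR adjusted p = 1.98e-05), and FBA1, an aldolase, at 993 CPM in snap33 against 1554 CPM in WT at 12 d, and 1745 CPM in snap33 against 1535 CPM in WT at 5 d (-0.83). FBA5, an aldolase gene outside the list, was the gene called lower with the smallest p. It had 63.5, 81.1 and 65.3 CPM in snap33 and 339.5, 295 and 416 CPM in WT at 12 d. It had 142, 153 and 186 CPM in snap33 and 95.1, 116 and 128 CPM in WT at 5 d (interaction -2.83, SE 0.21, edgeR adjusted p = 2.98e-08). The snap33 libraries stood below WT at 12 d and above WT at 5 d without overlap, and FBA5 shares 109 bases with a neighbour on the same strand.

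Phosphate starvation genes, which are induced when phosphate runs short, had the lowest median of the lists with 8 or more tested members. Of 15 members 9 were called lower, 0 higher and 6 not (median -1.08, with a median change with age of 0.63 in snap33 and 2.12 in WT). AT5G03545, a phosphate starvation transcript outside the list and among the 8 genes called lower with the smallest p, had 47.5, 44.3 and 56.2 CPM in snap33 and 217, 184 and 344 CPM in WT at 12 d. It had 114, 140.3 and 99.2 CPM in snap33 and 63.4, 69.4 and 51.1 CPM in WT at 5 d (interaction -3.27, SE 0.27, edgeR adjusted p = 1.14e-07). The snap33 libraries stood below WT at 12 d and above WT at 5 d without overlap. Its window, shown above, holds a P1BS motif, the site bound by phosphate starvation factors, as did 3 of 15 windows of the list (20.0%) and 5.49% of all. The autophagy list had the same share (20.0%), and the DNA replication list had 15.8%. SQD2, an enzyme that replaces phospholipid with sulfolipid, had 54.7, 61.3 and 73.3 CPM in snap33 and 115, 108 and 268 CPM in WT at 12 d. It had 83, 96.4 and 75.3 CPM in snap33 and 64.3, 53.9 and 67 CPM in WT at 5 d (interaction -1.83, SE 0.35, edgeR adjusted p = 0.000756). In both genes WT 12 d replicate 3 was the highest library, and without it 9 members of the list were again called lower (6 to 10 over the settings). SQD1 (-1.08), PS2 (AT1G73010) (-2.04), SPX1 (-1.55), MGD3 (-3.44) and MGD2 (-2.26) were called lower too. So was SPX3, with 22 reads in snap33 and 61 in WT at 12 d, and 6 in snap33 and 1 in WT at 5 d. Its scaled snap33 to WT ratio was 0.361 (95% interval 0.211 to 0.596) at 12 d and 6.54 (95% interval 0.793 to 301) at 5 d, and its adjusted p was 0.0424 (edgeR, 0.0266 to 0.262 over the settings), with the call lost in 7 of 22 settings: the harvest-date block, without any 1 of the 3 snap33 12 d libraries, and without snap33 5 d replicate 3 or WT 5 d replicates 1 or 3.

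Of 16 iron homeostasis genes 6 were called higher and 3 lower (median 0.22). Over the settings 4 to 7 were called higher and 2 to 4 lower, with 2 lower by DESeq2, by limma-voom and with the harvest-date block. The 4 bHLH factors that signal iron shortage were called higher: BHLH38, at 98.8 CPM in snap33 against 18.7 CPM in WT at 12 d, and 57.6 CPM in snap33 against 41.4 CPM in WT at 5 d (interaction 1.92, SE 0.31, edgeR adjusted p = 0.00016), BHLH39 (1.79), BHLH100 (2.08) and BHLH101 (1.83). Of the ferritins, which store iron, FER4 and FER3 were called lower. FER4 stood at 9.66 CPM in snap33 against 35 CPM in WT at 12 d, and 24.1 CPM in snap33 against 27.4 CPM in WT at 5 d (interaction -1.67, SE 0.26, edgeR adjusted p = 0.000139), and FER3 was at -0.79. FRO3 (0.70) and AT1G47395 (0.94) were the others called higher, and FRU (-0.83), a regulator of iron uptake, was called lower. FER4 overlaps a neighbour on the same strand by 118 bases. Hypoxia genes had 3 of 12 called higher and 0 lower (median 0.73). These were HB1, at 59.5 CPM in snap33 against 42.5 CPM in WT at 12 d, and 14.1 CPM in snap33 against 19.3 CPM in WT at 5 d (0.94), SUS1, at 99.6 CPM in snap33 against 64.8 CPM in WT at 12 d, and 17.3 CPM in snap33 against 20.8 CPM in WT at 5 d (0.88), and LBD41 (1.25, adjusted p = 0.0175), whose groups overlapped at 12 d and whose call was lost without snap33 5 d replicate 2 (0.0566, and 0.00339 to 0.0566 over the settings).

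**Figure D5:**
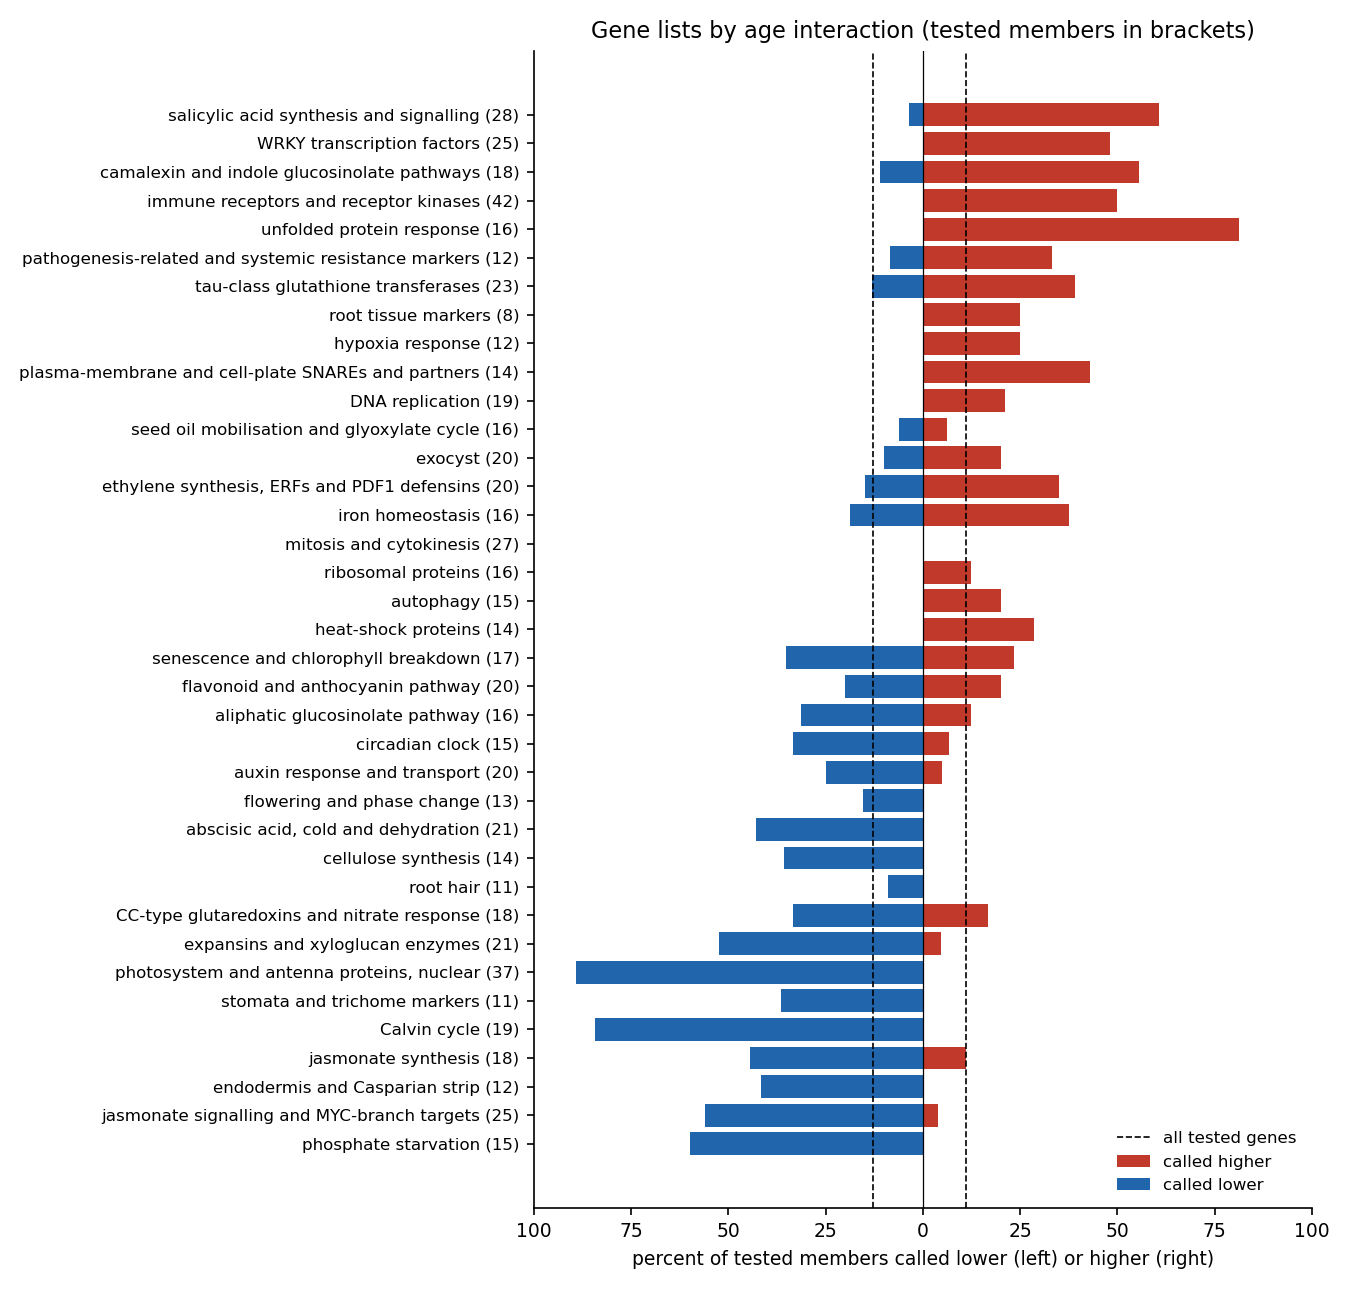
Percent of tested members called higher (red, right) and lower (blue, left) in the 37 gene lists with at least 8 tested members, ordered by median interaction, with the number tested in brackets. Dashed lines mark the shares among all tested genes (11.0% higher and 12.8% lower), and the longest bars are photosystems and antennae to the left (33 of 37) and the unfolded protein response to the right (13 of 16).

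Cell wall growth genes were called lower. Of 21 expansins and xyloglucan enzymes, which loosen the wall, 11 were called lower, 1 higher and 9 not (median -0.61). XTH4 had 89.3, 106 and 109 CPM in snap33 and 329, 284 and 239 CPM in WT at 12 d. It had 285, 289 and 260.3 CPM in snap33 and 362, 313 and 332 CPM in WT at 5 d (interaction -1.22, SE 0.17, edgeR adjusted p = 3.66e-05). XTH15 stood at 5.75 CPM in snap33 against 25 CPM in WT at 12 d, and 13.9 CPM in snap33 against 18.9 CPM in WT at 5 d (interaction -1.68, SE 0.31, edgeR adjusted p = 0.00062), and SEN4, also known as XTH24, at 278 CPM in snap33 against 303 CPM in WT at 12 d, and 269 CPM in snap33 against 143 CPM in WT at 5 d (-1.03). The call higher, EXPA9 (0.65), was lost with upper-quartile scaling, with the harvest-date block, and without any 1 of 7 libraries, the exceptions being snap33 12 d replicates 1 and 2, WT 12 d replicate 2, snap33 5 d replicate 3 and WT 5 d replicate 1. Cellulose synthesis had 5 of 14 called lower and 0 higher (median -0.48): CSI1 (-0.65), KOR1 (-0.63), CESA1 (-0.59), CTL1 (-0.48) and CESA3 (-0.46). The count was 2 without snap33 12 d replicate 1, where CSI1 was lost (adjusted p = 0.058, and 0.00612 to 0.058 over the settings), and 3 without WT 12 d replicate 3, snap33 5 d replicate 3 or WT 5 d replicate 1. Without WT 12 d replicate 3, 1 member was called higher.

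Of 20 auxin genes 5 were called lower and 1 higher (median -0.42). GH3.3, which conjugates auxin, stood at 50.4 ± 11.8 CPM in snap33 against 13.9 ± 0.802 CPM in WT at 12 d, and 22.1 ± 7.7 CPM in snap33 against 30.5 ± 4.58 CPM in WT at 5 d (interaction 2.32, SE 0.30, edgeR adjusted p = 1.92e-05). IAA17 (-0.66), the transporters PIN4 (-0.88), PIN3 (-0.54) and AUX1 (-0.65) and the response factor ARF19 (-1.06) were called lower. The count lower was 9 with upper-quartile scaling and 3 without snap33 12 d replicate 1 or snap33 5 d replicates 1 or 3, and 2 were higher without WT 12 d replicate 3. Of 15 clock genes 5 were called lower and 1 higher (median -0.42). RVE1 stood at 47.8 CPM in snap33 against 69.9 CPM in WT at 12 d, and 63.6 CPM in snap33 against 44.4 CPM in WT at 5 d (-1.07), GI at 19.2 CPM in snap33 against 31.5 CPM in WT at 12 d, and 34.1 CPM in snap33 against 29.3 CPM in WT at 5 d (-0.93) and TOC1, the member called higher, at 18 CPM in snap33 against 9.62 CPM in WT at 12 d, and 7.77 CPM in snap33 against 9.25 CPM in WT at 5 d (1.14). LHY (-0.53), CHE (-0.78) and LNK2 (-0.76) were the others called lower, and 2 were called higher without WT 12 d replicate 2.

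Mitosis and cytokinesis, in which SNAP33 takes part, had no call among 27 tested members by edgeR, DESeq2 or limma-voom, with 1 at an unadjusted p under 0.05 by edgeR (median 0.17). In each of 2 settings, without snap33 5 d replicate 2 or WT 5 d replicate 2, 1 member was called higher. DNA replication had 4 of 19 called higher and 0 lower (median 0.39). TSO2, of ribonucleotide reductase, stood at 208 CPM in snap33 against 133 CPM in WT at 12 d, and 248 CPM in snap33 against 257 CPM in WT at 5 d (interaction 0.69, SE 0.16, edgeR adjusted p = 0.00386), FAS1, a chromatin assembly factor, at 17.3 CPM in snap33 against 11.9 CPM in WT at 12 d, and 16.7 CPM in snap33 against 22.1 CPM in WT at 5 d (0.94), PCNA1 was at 0.71, and ORC6 at 1.70 (adjusted p = 0.0128). The count was 2 without WT 5 d replicate 2, where ORC6 was lost (0.056, and 0.00745 to 0.056 over the settings). Ribosomal proteins were listed only where the product text names a ribosomal subunit, so the list may hold only part of that class. Of 16 tested, 2 were called higher (AT3G44590 at 0.46 and AT5G57060 at 1.08) and 0 lower, near the share among all genes. The count higher was 1 with the harvest-date block, with upper-quartile scaling, with no low-count filter and without any 1 library except WT 12 d replicate 2, snap33 5 d replicate 1 and snap33 5 d replicate 2.

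Autophagy had 3 of 15 called higher and 0 lower (median 0.12): ATG8A (0.52, adjusted p = 0.0206), ATG8H (0.71, 0.0247) and ATG8D (0.68, 0.0455), all ubiquitin-like proteins of the autophagosome. The count was 1 with the harvest-date block, 1 when any of snap33 12 d replicate 1, snap33 5 d replicate 3 or WT 5 d replicate 1 was left out, and 0 without WT 12 d replicate 2. The adjusted p over the settings reached 0.0633 for ATG8A, 0.0876 for ATG8H and 0.145 for ATG8D. Aliphatic glucosinolates, made from methionine, had 2 of 16 called higher (MAM3 at 1.43 and CYP79F2 at 0.61) and 5 lower (median -0.21), led by FMOGS-OX1 (-1.12) and MAM1 (-0.80). The count lower was 2 without WT 12 d replicate 1, snap33 5 d replicate 1 or WT 5 d replicate 2, and 3 without snap33 12 d replicate 1 or WT 5 d replicate 3. The count higher was 1 with the harvest-date block and without snap33 12 d replicate 2, snap33 5 d replicates 1 or 3 or WT 5 d replicate 1.

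Markers of tissues were compared because whole seedlings hold many cell types. Endodermis and Casparian strip genes had 5 of 12 called lower and 0 higher (median -0.82). GPAT5, an enzyme of suberin, stood at 4.51 CPM in snap33 against 10.1 CPM in WT at 12 d, and 5.74 CPM in snap33 against 3.6 CPM in WT at 5 d (interaction -1.82, SE 0.40, edgeR adjusted p = 0.0025), and CASP1, a scaffold of the strip, at 49.4 CPM in snap33 against 99 CPM in WT at 12 d, and 59.8 CPM in snap33 against 68.7 CPM in WT at 5 d (-0.80). ESB1 (-0.91), PER64 (-0.95) and SCR (-0.62) were called lower too. The summed level was 202 to 208 CPM in snap33 against 299 to 516 CPM in WT at 12 d, and 226 to 270 CPM in snap33 against 268 to 280 CPM in WT at 5 d. The count was 8 without WT 12 d replicate 2 and 3 without snap33 5 d replicate 3. An antisense gene covers 1772 bases of ESB1. Root hair genes summed to 74.3 to 78.1 CPM in snap33 against 120 to 209 CPM in WT at 12 d, and 66.7 to 81.6 CPM in snap33 against 103 to 142 CPM in WT at 5 d. Of 11 tested, 1 was called lower (PRP1, -1.60) and 0 higher. Other root markers had 2 of 8 called higher (HKT1 at 1.59 and NAS2 at 0.99, 1 without snap33 12 d replicate 2) and summed to 1237 to 1361 CPM in snap33 against 1265 to 1689 CPM in WT at 12 d, and 2461 to 2801 CPM in snap33 against 2452 to 2738 CPM in WT at 5 d. The root hair count ran from 0, without snap33 12 d replicate 2 or snap33 5 d replicate 2, to 3, without WT 12 d replicate 2, and was 2 with upper-quartile scaling, with no low-count filter and without snap33 5 d replicate 1 or WT 5 d replicate 2.

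Stomata and trichome markers had 4 of 11 called lower and 0 higher (median -0.68). TRY, a regulator of trichome spacing, stood at 6.6 CPM in snap33 against 20.9 CPM in WT at 12 d, and 13.1 CPM in snap33 against 10.9 CPM in WT at 5 d (interaction -1.91, SE 0.27, edgeR adjusted p = 3.84e-05), TMM, a receptor of stomatal spacing, at 16.5 CPM in snap33 against 21.4 CPM in WT at 12 d, and 59.4 CPM in snap33 against 28.8 CPM in WT at 5 d (-1.42), EPF1 was at -1.06, and MYB60 at -1.20 (adjusted p = 0.0241, 0.00393 to 0.0628 over the settings). The MYB60 call was lost without snap33 12 d replicate 2, WT 12 d replicate 3, snap33 5 d replicate 3 or WT 5 d replicates 2 or 3, and the count was 2 when any of snap33 12 d replicate 2, snap33 5 d replicate 3 or WT 5 d replicate 3 was left out. Of 13 flowering genes SVP (-0.91) and GI were called lower and 0 higher (median -0.46). Of 3 tested floral genes PI (-3.03) and SEP3 (-1.69) were called lower and 0 higher, and the pollen genes MS1 and AMS had 0 reads in all 12 libraries. PI had 61, 289 and 276 reads in the snap33 5 d libraries, so 1 library stood far below its partners. The floral count was 1 by DESeq2 and without snap33 12 d replicates 2 or 3, WT 12 d replicate 1, snap33 5 d replicate 1 or WT 5 d replicate 2. Of 16 genes of seed oil use LACS6 (1.04) was called higher and PMDH2 (-0.94) lower (median 0.34), with 2 or 3 called higher without WT 12 d replicates 1 or 3, snap33 12 d replicate 1, snap33 5 d replicates 2 or 3 or WT 5 d replicate 2, by limma-voom and with RLE scaling, and 2 called lower with no low-count filter. Seed storage genes summed to 0 to 1.74 CPM in snap33 against 0 CPM in WT at 12 d, and 1.68 to 2.38 CPM in snap33 against 1.37 to 3.35 CPM in WT at 5 d. The single tested member was not called, and was called higher with the harvest-date block, with no low-count filter and without snap33 12 d replicates 1 or 2. The part of these tissue markers in the other results was not tested.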

How the data were processed

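RNA-seq of whole seedlings was measured in 12 libraries. The authors deposited raw counts per gene and library, in the format of htseq-count. STAR and the TAIR10 genome are named in the submitters' processing notes, without versions. Nothing read here says whether counting used strand. In all, 29 of the 125 named genes overlap another annotated gene, and not every overlap is given beside its gene. Antisense genes also cover 595 bases of LHCB2.3, 453 of HSP17.4, 386 of BHLH38 and 382 of XTH15. The labels' protocols describe stranded single-read libraries from polyA-selected RNA. Reads counted to no gene (9.26% to 12.1% of each library) were left out. The 32548 of 32744 genes with a locus in the RefSeq table (TAIR10.1) were given its symbols, and the other 196 are organelle genes. Positions and upstream sequence are from that RefSeq assembly.

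From the counts, edgeR 4.0.16 (R 4.3.3) was run with TMM scaling, filterByExpr on the 4 groups, a mean per group and a quasi-likelihood F-test of the interaction. P-values were adjusted by Benjamini-Hochberg over all 18830 tested genes and called under 0.05. The SE is the fitted log2 value divided by the square root of F, an approximation. For genes with 3 or fewer reads in a group, ratios of scaled counts carry exact 95% intervals, which cover counting error only. A floor of 3 reads over a group was used where it had 0. The model was tested on simulated data before use.

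Genes named were SNAP33 and called SNAREs, the 8 smallest p and the 6 largest fitted values per direction (at least 10 CPM on average), 4 per direction with effects of opposite sign, each at least 2-fold, and, for each list with 3 or more called members, the 3 with the smallest p. Other called list members are given by interaction. PR1 and ICS1 were added after their values were seen. The members and lists were chosen with earlier results of these data known. Alternatives were other scalings, filters and spread estimates, DESeq2 1.42.0, limma-voom (limma 3.58.1), no organelle genes, replicate blocks and leaving out each library.

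Pairing comes from the labels: within an age, the same-numbered snap33 and WT libraries share a harvest date. Their deviations from the group means, in log2 CPM over tested genes, correlated at -0.253 to -0.004. The fit has no block because the contrast was defined with a mean per group.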

Additional observations from a re-analysis of the deposited data

Results flagged for a closer look

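The interaction tests whether the snap33 effect differed between 12 d and 5 d, and it was called for 2065 genes in the higher direction and 2401 in the lower direction. Among them, 8 genes were singled out because their snap33 effects had opposite signs at the 2 ages, each at least 2-fold, with the smallest p in their direction. GSTF7 (interaction 3.73) and CYP81F2 (3.65) were called higher. WRKY54 (8.35) and PGAZAT (8.34) were called higher too, with 466 reads in snap33 and 6 in WT at 12 d, and 3 in snap33 and 16 in WT at 5 d for WRKY54, and 361 reads in snap33 and 2 in WT at 12 d, and 10 in snap33 and 24 in WT at 5 d for PGAZAT. MES18 (-2.26), AT5G47330 (-3.66), AT2G34930 (-3.33) and CIPK20 (-2.99) were called lower. All 8 genes kept their call and direction under all 22 alternatives. The snap33 12 d plants have an earlier planting date than all others, so planting date and the snap33 effect at 12 d cannot be told apart for any of them.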

How the results depend on the processing

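The number of genes called lay between 3486 and 5141 over 22 alternatives, against 4466, and 77.1% to 99.9% of the called genes were called again in the same direction. No called gene changed sign. Counts were 3995 by DESeq2, 4623 by limma-voom, 4429 with RLE scaling, 4554 with no low-count filter and 4657 with upper-quartile scaling, which moved the median interaction of all genes to -0.10. Leaving out 1 library gave 3566 (without snap33 12 d replicate 1) to 5141 (without WT 12 d replicate 3). With a replicate block for the harvest date 3486 genes were called (1637 higher and 1849 lower), and with a block for the replicate number 4065 (1879 and 2186). Among the 125 named genes the blocks ended the calls of SNAP33, AOX1D, ATG8D and, by date, ATG8A, and changed no other. In all, 114 named genes kept their call in every alternative, and the other 11 are given in the report. The cause of these changes was not tested. With 3 libraries a group and 4304441 to 5754570 reads each, 49 genes called higher and 11 called lower had a group with 3 or fewer reads, and their fold changes are poorly measured.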
